A study of Drosophila sechellia with 6 samples.

Results

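The odorant and gustatory receptor genes of *Drosophila sechellia*, an island fruit fly that feeds on the fruit of *Morinda citrifolia* (noni), were looked up in the deposited table of gene expression. Members were all genes named *Or* or *Gr* followed by a number, after removal of the species prefix. This found 1 of 17273 genes, the gustatory receptor *Gr64e* (FBgn0169535), and 0 odorant receptors. The table gives 16284 genes, 94.3% of the total, by a GM number in place of a family name, so 1 is the number of receptors named there and not the number the species has. A further 9 receptors, 5 *Or* and 4 *Gr*, could be named through the *D. melanogaster* ortholog column that accompanies the study. They do not meet the rule and are given beside *Gr64e* under their GM numbers, together with the co-receptor *Orco*. The ortholog column was at hand only in part, for 1998 genes, 11.6% of the table, and names 1602 of them. Receptors outside this part were not identified here. The paper counts many more genes with annotated *D. melanogaster* orthologs, so the low coverage is not that of the study's annotation.

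The RNA came from whole adult females of the strain 14021-0428.25, aged 0 to 3 days. Flies of the noni group ate instant food with 1 g of rotten noni pulp mixed in for 24 h, and flies of the control group ate instant food alone for 24 h. All had been reared on cornmeal medium at 20 °C with 16 h of light and 8 h of dark. Each library pooled 10 flies, with 3 libraries for noni and 3 for control, and the table gives 1 FPKM value (reads scaled to gene length and to sequencing depth) for each diet over its 3 libraries. No value of a single library was at hand, so no SD, interval or test is given for any gene, and no difference below has a replicate check. Read depth is not among the deposited values, but the paper lists mapped reads for each library, with fewer in total for noni than for control. In such bulk RNA, fewer receptor neurons and less RNA in each neuron cannot be told apart.

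Markers of the sample fit the label of females. They do not mark head tissue or sensory organs, and none of 14 neuronal gene names could be matched. The yolk protein gene *Yp2* was at 18179 FPKM on noni and 11056 FPKM on control food, and *dhd*, a thioredoxin gene of the female germline, was at 9147 FPKM on noni and 8070 FPKM on control food. Of 7 accessory gland protein genes, which are made by males, 6 were listed at 0 in both diets. The exception was *Acp36DE*, at 0 on noni and 0.0452 FPKM on control food.

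Insects smell and taste with receptors on sensory neurons of the antennae, mouthparts, legs and other organs. An odorant receptor works as an ion channel together with the shared co-receptor Orco, and most olfactory neurons carry a single type that sets which odors they detect. Gustatory receptors sense sugars, bitter compounds and carbon dioxide, usually with several types in a neuron. Each type is made in few cells of the fly, and *D. sechellia* is a well-known case of a change in smell and taste that goes with a host plant.

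Gr64e belongs to the sugar receptor clade, and in *D. melanogaster* it is required for the taste of glycerol and takes part in the taste of fatty acids. The gene lies on scaffold 2 of the build dsec_caf1 from 4026470 to 4028313, a locus of 1844 nt that overlaps no other gene of the table. *Gr64e* was listed at 0 FPKM on noni and at 0.0456 FPKM on control food. It was thus seen in control flies alone, at a trace, and no fold change can be given against a value of 0. Cuffdiff marked it NOTEST, the mark for genes with too few reads for a test, as it did for 34.5% of all genes. The lowest mean of both diets among genes with enough reads was 1.15 FPKM, against a mean of 0.0228 FPKM for *Gr64e*.

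The trace of *Gr64e* in control flies sat at the lower end of what the table can hold. Of 14324 genes above 0 in at least one diet, 69, or 0.482%, had a lower mean. FPKM was multiplied by locus length in kb, which roughly follows the number of fragments for a gene without introns. Introns raise this product, and which genes have them was not known here, *Gr64e* included. Ranks by the product are therefore approximate. Among 7013 genes of 500 to 2500 nt above 0 on control food and with a locus of their own, 117 (1.67%) had a smaller product than the 0.0842 of *Gr64e*. Almost no products lay under 0.04, with 0 genes on noni and 1 gene on control food, while 146 genes on noni and 156 genes on control food lay under 0.1. The value of *Gr64e* on control food, 0.0456 FPKM, was also next to the 0.0452 FPKM of the male gene *Acp36DE*. A listing at 0 on noni with a value above 0 on control food was shared by 657 genes, whose median on control food was 0.320 FPKM, and 94.7% of them were higher there than *Gr64e*. The opposite pattern was found for 446 genes. Mapped reads were fewer in total for noni, and whether this bears on these counts or on the 0 of *Gr64e* was not tested. Whether *Gr64e* differed between the diets could not be tested with 1 value for each.

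**Figure D1:**
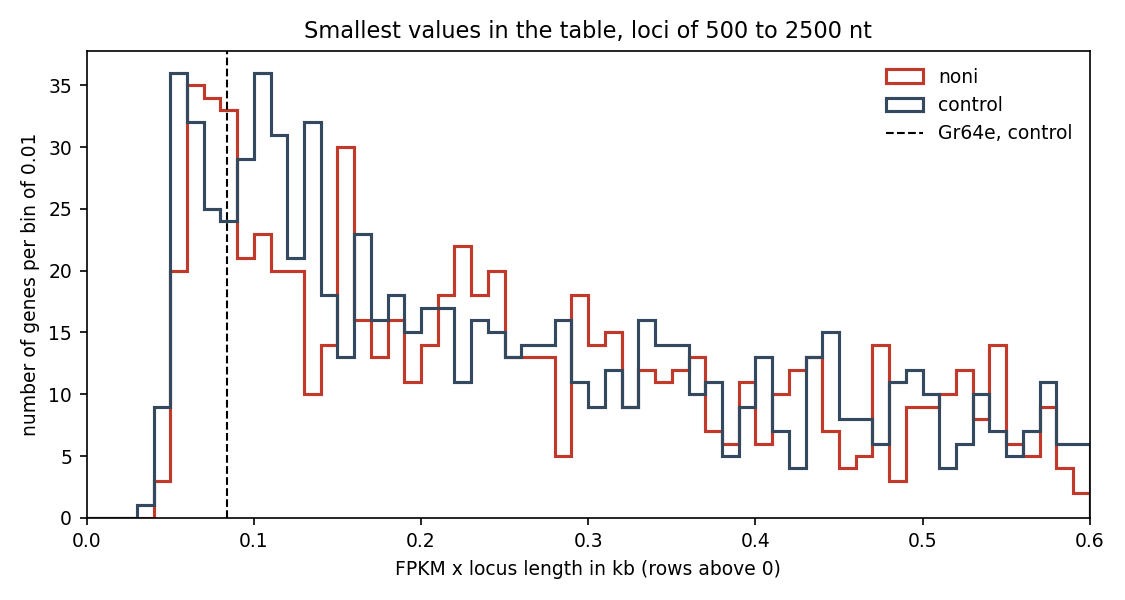
Number of genes (y axis) by the product of FPKM and locus length in kb (x axis), for genes above 0 with loci of 500 to 2500 nt that overlap no other gene, noni and control as outlines. The dashed line marks *Gr64e* on control food at 0.0842, among the smallest products, of which almost none lie under 0.04 in either diet.

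*Gr64e* stands in a row of weakly listed genes. The row was taken by extending from *Gr64e* to both sides while the next gene had a mean under 1 FPKM. On its scaffold this gave 6 genes from 4019469 to 4030279, *Gr64e* included. The lowest mean among genes with enough reads was 1.15 FPKM, so the NOTEST mark of all 6 followed from this choice. They are between 1105 and 1844 nt long and lie 182 to 861 nt apart. In *D. melanogaster* the sugar receptor genes of the Gr64 group lie in tandem and are transcribed together, but the other 5 genes have no family name in the sources used here and are given by number only. GM14612 was the highest of the row, at 0.152 FPKM on noni and 0.0813 FPKM on control food, and it alone was above 0 in both diets. GM14611 was at 0.0570 FPKM, GM14613 at 0.0504 FPKM and GM14615 at 0.0811 FPKM on noni, and each of these 3 was listed at 0 on control food. GM14609 was at 0 in both diets. The 6 genes summed to 0.341 FPKM on noni and 0.127 FPKM on control food. Within the row, 4 genes were higher on noni and *Gr64e* was the only one lower, all by amounts under 0.1 FPKM. These values lie near the lowest of the table and only GM14612 was above 0 in both diets. Nothing is therefore read from the order or the sums.

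The genes bordering the row had a mean of at least 1 FPKM by the way it was taken, and their levels were well above this. On the side of lower coordinates, GM14022 was at 81.4 FPKM on noni and 49.4 FPKM on control food, and GM14608 was at 26.8 FPKM on noni and 24.4 FPKM on control food. On the other side, GM14021 was at 25.5 FPKM on noni and 23.9 FPKM on control food. Between the last gene of the row and GM14021 lie 910 nt. The row was not the only stretch of low values nearby, since GM14607, beyond GM14608, was listed at 0 on noni and at 0.270 FPKM on control food.

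**Figure D2:**
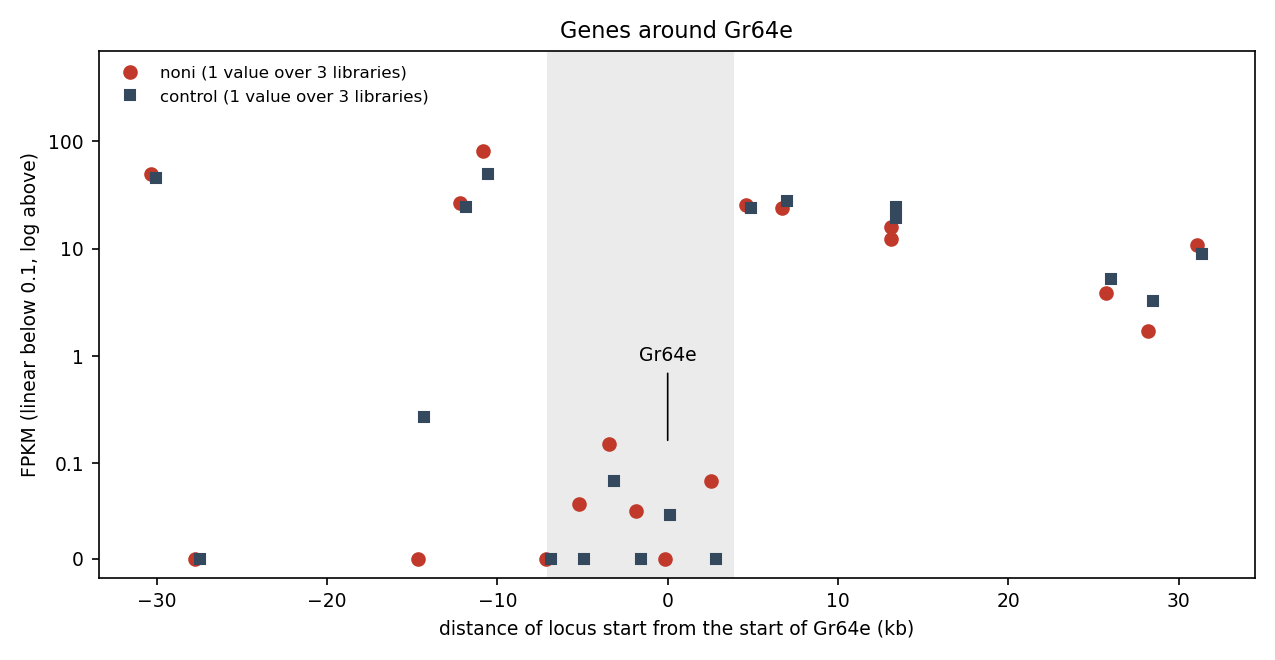
FPKM on noni and on control food (y axis, linear below 0.1 and log above) of the genes around *Gr64e*, by the distance of their locus start from that of *Gr64e* in kb (x axis), with 1 value per diet over 3 libraries. The shaded run of 6 genes that holds *Gr64e*, ended on each side where a mean reached 1 FPKM, lies at or below 0.152 FPKM. The genes bordering it lie between 23.9 and 81.4 FPKM.

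Of the 4 gustatory receptors named by ortholog, 2 were above 0 in at least one diet and 2 were listed at 0 in both. GM11405, the ortholog of *Gr9a*, is listed at a locus on scaffold 15 from 667496 to 680286. It was at 0.116 FPKM on noni and 0.301 FPKM on control food, a log2 change of -0.89 with 0.1 FPKM added to both values. Its locus is shared with GM11338, at 44.0 FPKM on noni and 37.7 FPKM on control food, so reads could have been divided between them. The listed span may not be that of GM11405 alone. GM10153, the ortholog of *Gr97a* on scaffold 13 from 1563249 to 1564259, was at 0.0867 FPKM on noni and listed at 0 on control food. GM10394, the ortholog of *Gr98a*, and GM10397, listed with *Gr98b*, *Gr98c* and *Gr98d*, were at 0 in both diets. Summed over these 4 genes the level was 0.203 FPKM on noni and 0.301 FPKM on control food. Without the shared locus of GM11405 the sums were 0.0867 FPKM on noni and 0 on control food, the reverse order.

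Among the 5 odorant receptors named by ortholog, GM11201 had the highest mean. It is the ortholog of *Or7a*, which in *D. melanogaster* is made in neurons of the antenna that respond to the leaf odor E2-hexenal, and lies on scaffold 44 from 144451 to 145903. It was at 0.694 FPKM on noni and 0.260 FPKM on control food, 2.67 times as high on noni, or 1.14 on the log2 scale with 0.1 FPKM added. Its mean of 0.477 FPKM was below the 0.5 FPKM required before a change was counted, and with 1 FPKM added the log2 change was 0.43. It was higher than 26.5% of all genes by mean.

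GM11312, the ortholog of *Or9a*, was the next highest and had the opposite order, listed at 0 on noni and at 0.578 FPKM on control food. Its locus on scaffold 15, from 978111 to 1062328, is shared with 4 other genes, and one of them, GM11421, was at 244 FPKM on noni and 230 FPKM on control food. Because of the shared locus the value and the extent of GM11312 are uncertain. GM10740 is the ortholog of *Or82a*, a receptor of the antenna, and was at 0.167 FPKM on noni and listed at 0 on control food.

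GM10570, the ortholog of *Or83c*, which detects farnesol in *D. melanogaster*, was at 0.0825 FPKM on noni and 0.0480 FPKM on control food. GM10639, the ortholog of *Or83a*, was at 0 in both diets. The 5 genes summed to 0.943 FPKM on noni and 0.887 FPKM on control food. Leaving out the shared locus of GM11312 gave 0.943 FPKM on noni and 0.308 FPKM on control food, so this gene made up most of the control sum. Leaving out GM11201 in its place gave 0.249 FPKM on noni and 0.626 FPKM on control food, so the order of the sums turned on single genes. Over all 10 receptors, 7 were above 0 in at least one diet, 3 of these in both, and all 10 were marked NOTEST. Among all genes, 17.1% were at 0 in both diets and 34.5% were marked NOTEST. A mean of at least 0.1 FPKM was reached by 3 of the 10, GM11201, GM11312 and GM11405. Of the 7, 4 were higher on noni and 3 lower.

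**Figure D3:**
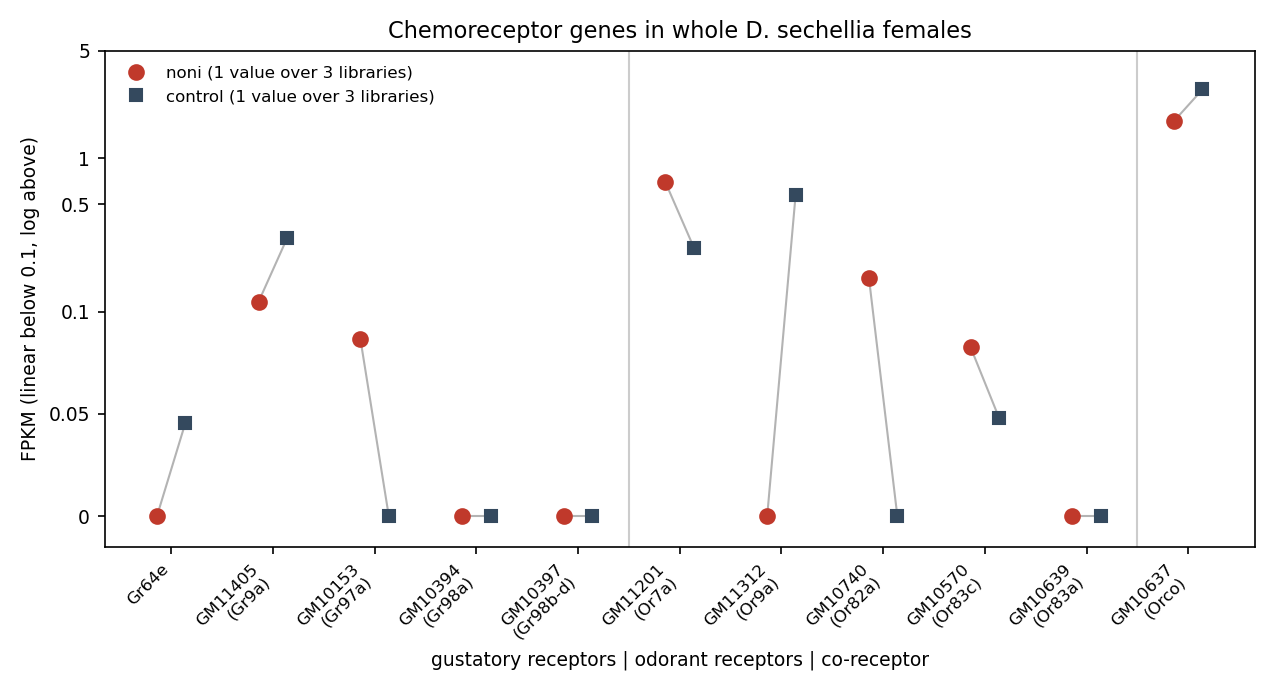
FPKM on noni (circles) and on control food (squares) of 10 receptor genes and *Orco* (y axis, linear below 0.1 and log above), grouped along the x axis as gustatory receptors, odorant receptors and co-receptor, with 1 value per diet over 3 libraries and a line joining the diets. All receptors lie below 0.7 FPKM in both diets, with the higher diet differing from gene to gene, and *Orco* lies above 1.7 FPKM in both.

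The co-receptor gene was measured more firmly than the receptors. GM10637, the ortholog of *Orco* on scaffold 6 from 1350356 to 1352769, was at 1.74 FPKM on noni and 2.80 FPKM on control food, a log2 change of -0.65, and it had enough reads for a test. Its level on noni was 0.623 of that on control food. This was inside the range of 2-fold either way. Across the 12650 genes whose mean reached 0.5 FPKM, 3.11% were at least 2-fold higher on noni and 5.4% at least 2-fold lower, with a median log2 change of 0.04. Neither *Gr64e* nor any of the 9 receptors named by ortholog reached a mean of 0.5 FPKM, so 0 of them entered these counts. Of all genes, 26.8% had a mean under 0.5 FPKM.

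Lists of receptors by sense organ were mostly out of reach, since the ortholog column was at hand only in part. Of 25 *Or* names of antennal basiconic sensilla, 3 could be matched (*Or7a*, *Or9a* and *Or82a*), of 14 names of other antennal sensilla 1 (*Or83c*), and of 13 names known mainly from larvae 1 (*Or83a*). None of the 7 *Or* names of the maxillary palp was matched, nor any of the 2 *Gr* names of carbon dioxide neurons or the 5 of bitter neurons. Of 9 names of the sugar clade with *Gr43a*, *Gr64e* alone was matched.

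A list of other genes of smell and taste held mainly odorant-binding proteins, found in the fluid around the neurons, ionotropic receptors and co-receptors. Of its 25 names, 10 were matched. Cuffdiff had enough reads for a test of 8 of these genes, *Orco* among them, and marked 2, *Obp57d* and the ortholog of *Ir84a*, NOTEST. A mean of 0.5 FPKM was reached by 9 of the 10, of which 1 was higher on noni and 8 lower, with a median log2 change of -0.30, against 0.04 over all genes with this mean. All of them except *Orco* are odorant-binding protein genes. The deposited names hold 51 such genes, 37 of them above 0, and most were not on the list. The share of all genes lower on noni was not computed, so the count of 8 has nothing to be set against. It is no account of smell and taste genes in general. The odorant-binding protein gene *Obp76a* (*lush*), needed for the pheromone response in *D. melanogaster*, was at 12.1 FPKM on noni and 11.6 FPKM on control food. *Obp57d*, which with *Obp57e* is known for taste behaviour of this species toward noni acids, was at 0.260 FPKM on noni and 0.745 FPKM on control food, a log2 change of -1.23. It was counted as 2-fold lower with a mean of 0.503 FPKM, just past the minimum and only through its level on control food, while GM11201 (*Or7a*), at 0.477 FPKM and higher on noni, was just short of it. This count of 1 therefore carries no weight beside the 5.4% of genes at least 2-fold lower. *Obp57e* was at 1.82 FPKM on noni and 2.27 FPKM on control food. These are neighbouring, related genes, each listed as ortholog to both *D. melanogaster* genes, so their separate values are uncertain. The ionotropic receptor gene GM10959, the ortholog of *Ir84a*, which promotes male courtship in *D. melanogaster*, was listed at 0 on noni and at 0.125 FPKM on control food.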

How the data were processed

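Whole-female RNA of 3 noni and 3 control libraries, grouped by the diet in their labels, underwent poly(A) selection and was read at 65 nt. After quality checks in FastQC, the authors aligned the reads against dsec_caf1 using Bowtie2 and quantified genes with Cuffdiff and Ensembl annotation release 42; tool versions are not given in the sources used here. The deposited FPKM values are those of Cuffdiff, normalized by the geometric method and corrected for library size and sequence bias, with 1 value for each diet over 3 libraries. Bias correction and estimation make low FPKM values uneven. The table also holds the authors' log ratios, test statistics and significance columns, which were not used.

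Log2 changes of noni over control were computed with 0.1 FPKM added to both values, which understates changes of low genes, and genes past 2-fold were counted if their mean reached 0.5 FPKM. Locus starts count from 0 in the table (47.5% of lengths are then multiples of 3, against 26.8% otherwise) and are printed counted from 1. Ortholog names came from the part of the study's supplementary table that was at hand. The rule for named genes took the 10 *Or* and 10 *Gr* with the highest mean, members past 2-fold, a list of well-known receptors and the co-receptors, of which *Gr64e* and *Orco* were found. The neighbours of *Gr64e*, the *Obp* and *Ir* genes and the tissue markers were named after their values were seen. Members and lists were chosen with earlier results of these data known, and the receptors named by ortholog were added after the table was seen. Calculations used Python 3.11.15, numpy 2.4.6 and pandas 2.3.3. The fold count was tested on simulated data with changes far larger than 2-fold and a small spread. This checks the calculation and not the counts in these data. Alternatives were other pseudocounts, minimum means, folds, centring, and omission of shared loci or of NOTEST genes. No sequence of these genes was used here.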

Additional observations from a re-analysis of the deposited data

How the results depend on the processing

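With detection set at a mean above 0 in place of 0.1 FPKM, 1 receptor met the rule and the threshold, *Gr64e*, against 0; at 0.5 or 1 FPKM, and at 0.1 FPKM in each diet, it was 0. The count of rule members past 2-fold was 0 throughout, but 9 of the 10 alternatives keep a minimum that *Gr64e* cannot pass, and in the other, with no minimum, its change against a value of 0 is set by the pseudocount, so this says nothing of stability. Among receptors named by ortholog, which were added after seeing the data, 2 *Or* and 1 *Gr* had a mean of at least 0.1 FPKM, 4 and 2 a mean above 0, and 0 of either at least 0.5 FPKM. Past 2-fold there were 2 of them with a minimum of 0.1 FPKM and 3 with none, in place of 0, of which those listed at 0 in one diet depend on the pseudocount. The share of all genes past 2-fold was computed only at a minimum of 0.5 FPKM. These counts therefore have no share to be set against, and nothing is read from them. For *Gr9a* (GM11405) the log2 change was -1.30 with 0.01 FPKM added and -0.22 with 1 FPKM. For *Orco* it lay between -0.69 and -0.47 under 3 alternatives. Medians over receptors have no value at a minimum of 0.5 FPKM. Leaving out libraries was not possible. No paired analysis was possible because each diet has only 1 pooled value.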

Other observations

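One ionotropic receptor was at a level of another order. GM11977, listed as the ortholog of *Ir7c* on scaffold 50 from 56776 to 58785, was at 13.1 FPKM on noni and 11.2 FPKM on control food, a log2 change of 0.23, and its mean was above that of 50.6% of all genes. Its name was found in the study's list of genes that responded to L-DOPA, so it had been chosen there for a response in another experiment, and it is named here after its values were seen. The gene GM11251, the ortholog of *Ir10a*, was at 0.0681 FPKM on noni and listed at 0 on control food.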
